A study of Mus musculus with 8 samples.

Results

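The CC chemokine genes described here are 8 genes with a known place in the chemokine output of dendritic cells and of the leukocytes around them: Ccl22, Ccl17, Ccl5, Ccl3, Ccl4, Ccl9, Ccl6 and Ccl2. They were chosen by name, and all 8 were measured among the 22180 genes of the array that a probe set names alone. Each of the 8 has a single such probe set, so none had to be chosen by brightness. The cells were CD103+ CD11b+ conventional dendritic cells (cDC), sorted by flow cytometry from mesenteric lymph nodes, the nodes that drain the intestine. Of the 8 arrays, 4 came from DChBcl-2 mice, which carry an hBcl-2 transgene (human BCL2, a protein that blocks the mitochondrial pathway of cell death) driven by the CD11c promoter, and 4 came from wild-type littermates. All mice were 8-week-old C57BL6 males kept on control chow. Material of 2 to 3 samples was pooled for each array. Since the labels name no animals, p-values measure the spread between these pools (n = 4 per group throughout).

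CC chemokines are small secreted proteins, named for a pair of adjacent cysteines, that bind G protein-coupled receptors and set where leukocytes go. CCL17 and CCL22 share the receptor CCR4 and draw activated, regulatory and T helper type 2 T cells towards dendritic cells. CCL3, CCL4 and CCL5 draw T cells, NK cells and monocytes, and CCL3 and CCL5 act on CCR1. CCL6 and CCL9 are mouse chemokines that act on CCR1, and CCL2 recruits monocytes through CCR2. Migratory cDC that have matured and reached a lymph node are known as a strong source of Ccl22, Ccl17 and Ccl5, whereas Ccl3 and Ccl4 are also made by NK cells and T cells and Ccl2, Ccl6 and Ccl9 by monocytes and macrophages.

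The values are the deposited log2 signals of RMA, which ran from 2.11 to 13.95 over all arrays. Arrays carry no read depth, and their number limits the precision. Transgenic replicate 4 stood a little apart, with a mean correlation over probe sets of 0.970 with its own group against 0.976 to 0.979 for the other transgenic arrays, and 0.983 to 0.985 within wild type. Of the genes behind the sort, Itgax (CD11c) was at 8.80 to 9.42 over the 8 arrays, while Itgae (CD103, 5.17 to 5.90) and Itgam (CD11b, 5.38 to 5.76) were dim. The cDC genes Flt3 (10.27 to 11.23) and Zbtb46 (8.07 to 8.85) and the class II gene H2-Ab1 (12.58 to 13.05) were bright. Ccr7, the receptor that guides mature cDC to lymph nodes, lay between 12.94 and 13.12. Probe sets differ in how brightly they bind, so signals are compared between arrays and not between genes. In RNA from a sorted population, fewer cells of one kind and less RNA per cell cannot be told apart.

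The 8 genes did not move in one direction. Ccl22, Ccl17, Ccl5, Ccl3, Ccl4 and Ccl9 had signals well above the median of all probe sets, whereas Ccl2 in both groups and Ccl6 in wild type were near it, so their place among the chemokines made by these cells is not settled by these arrays. Ccl6 rose in transgenic cDC, by 0.72 on the log2 scale, and Ccl9 was 0.69 higher without passing the test. Ccl22 was 0.77 lower and Ccl17 0.48 lower, and neither passed. Ccl5, Ccl3, Ccl4 and Ccl2 had differences between -0.22 and 0.16. With limma and Benjamini-Hochberg adjustment over all 22180 genes at a threshold of 0.05, 1 of the 8 was called higher, 0 were called lower and 7 did not pass. Over all genes, 1.69% were called in either direction. At an unadjusted p below 0.05 there were 3 of the 8 in limma, Ccl6, Ccl22 and Ccl9, where 13.2% of all genes lay. The 4 transgenic and the 4 wild-type arrays did not overlap for 3 of the 8, Ccl22, Ccl5 and Ccl6, and for 8.94% of all genes. Of the 8 differences 4 were positive, and the median was 0.044, against -0.0016 over all genes.

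**Figure D1:**
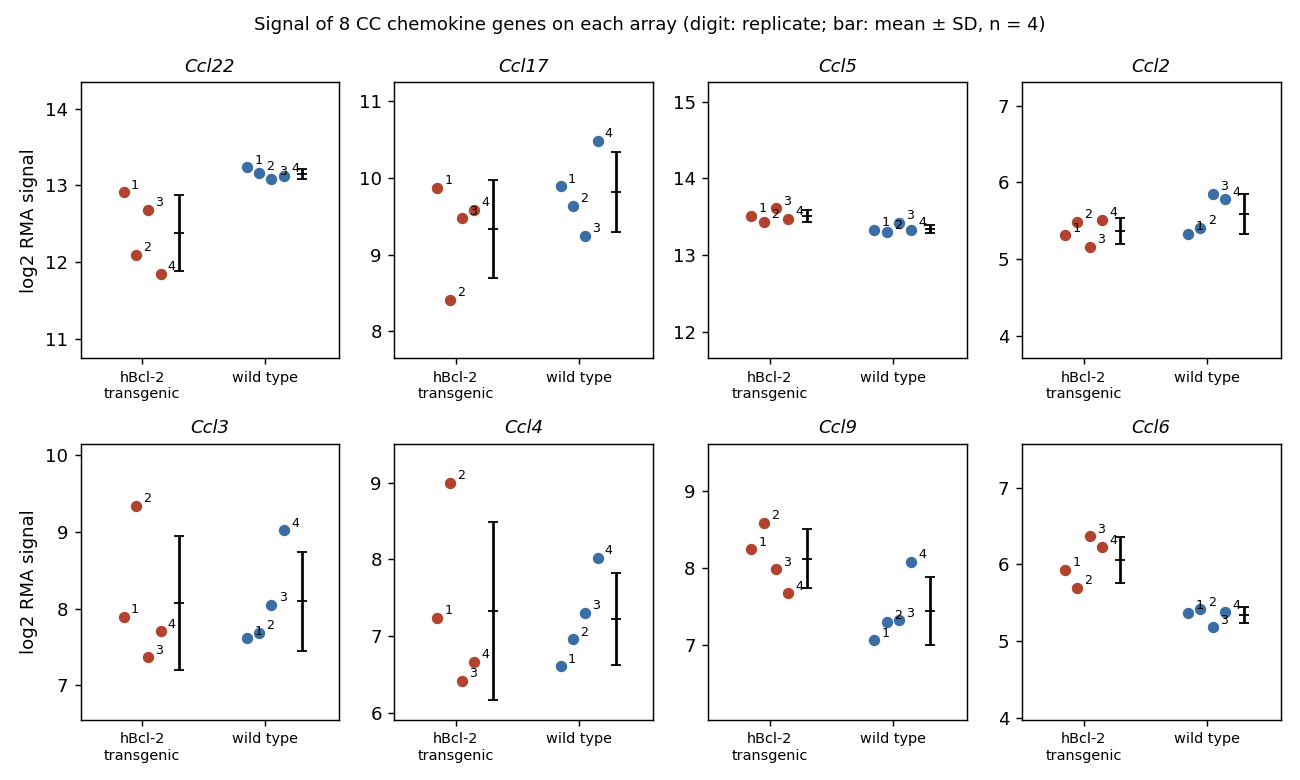
Log2 RMA signal (vertical axis) of each CC chemokine gene on the 4 hBcl-2 transgenic arrays (left, red) and the 4 wild-type arrays (right, blue). Digits give the replicate and bars the mean ± SD; every panel spans the same number of log2 units. The 2 groups are apart for Ccl22, Ccl5 and Ccl6, while Ccl3 and Ccl4 each have 1 high array in both groups.

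**Figure D2:**
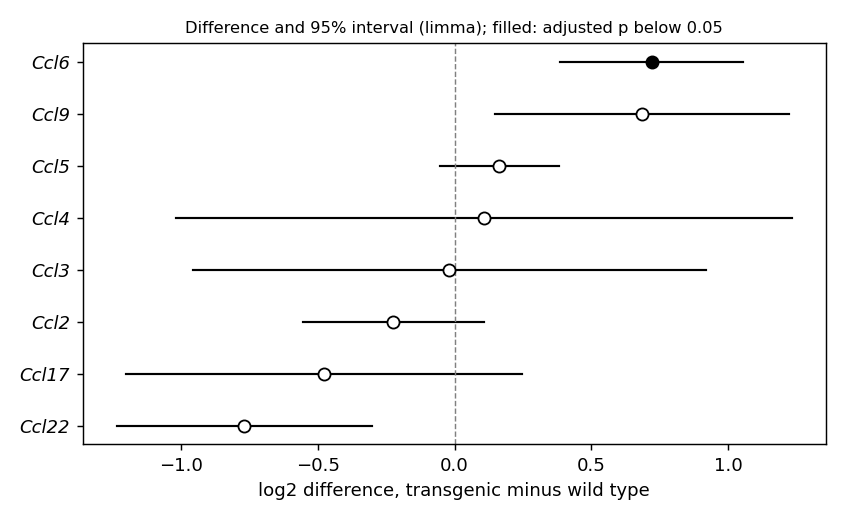
Log2 difference, transgenic minus wild type (horizontal axis), of the 8 genes with 95% intervals from limma. Ccl6 (filled) passed the adjusted threshold, and the intervals of Ccl6, Ccl9 and Ccl22 leave out 0, whereas those of Ccl3 and Ccl4 reach about 1 log2 unit to either side.

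Ccl22, a high-affinity CCR4 ligand and a hallmark of mature cDC, was lower on every transgenic array than on any wild-type array. Its signal was 12.91, 12.09, 12.68 and 11.85 on transgenic replicates 1 to 4, against 13.24, 13.15, 13.09 and 13.13 on wild-type replicates 1 to 4. The wild-type arrays were tightly bunched and the transgenic arrays were spread over about 1 log2 unit below them. The means were 12.38 ± 0.49 in transgenic and 13.15 ± 0.06 in wild-type arrays (SD, n = 4 each), a difference of -0.77 (SE 0.21, 95% interval -1.23 to -0.30), which is 0.587 times the wild-type signal (interval 0.425 to 0.810). This did not pass over all genes (limma adjusted p = 0.111), and the exact two-sided permutation test of the means gave p = 0.0286, the smallest that 70 assignments allow. The SD of Ccl22 was 7.79 times as large in transgenic as in wild-type arrays, a ratio that 1.13% of all genes reached. The signal lies near the top of the scale, where RMA values can be compressed, so the size of the difference may be understated.

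Ccl17, the other CCR4 ligand, which lies close to Ccl22 on chromosome 8, varied more within the groups than between them. Its signal was 9.88, 8.41, 9.48 and 9.59 on transgenic replicates 1 to 4, against 9.89, 9.64, 9.25 and 10.49 on wild-type replicates 1 to 4. Transgenic replicate 2 was the only array below all wild-type arrays, and the other transgenic arrays lay among them. The means were 9.34 ± 0.64 and 9.82 ± 0.52 (transgenic and wild type, SD, n = 4 each), with a difference of -0.48 (SE 0.33, 95% interval -1.20 to 0.25; limma adjusted p = 0.615). Without transgenic replicate 2 the difference was -0.17 (limma adjusted p = 0.867), and without wild-type replicate 4 it was -0.26 (0.843). In the order of genes along the chromosome, Cx3cl1, a chemokine of another class, stands between Ccl22 and Ccl17 and was at 6.78 in transgenic and 6.52 in wild-type arrays (difference 0.26, SE 0.25; limma adjusted p = 0.743).

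The stretches before the starts of these 2 genes are shown because both encode CCR4 ligands and both had lower means in transgenic cDC. They come from RefSeq (GRCm38.p6), which gave a start region for 5 of the 8 genes, Ccl22, Ccl17, Ccl3, Ccl9 and Ccl6, and each covers the 250 bases before the annotated start, read 5′ to 3′ on the strand of the gene. The Ccl22 stretch is chr8:94745434-94745683 (+ strand) and the Ccl17 stretch chr8:94810203-94810452 (+ strand). Capitals mark matches on either strand to any of 8 motifs: NF-kB (by name), AP-1 (TGANTCA), the interferon-stimulated response element (GAAANNGAAA), STAT6 (TTCNNNNGAA), STAT5 (TTCNNNGAA), PU.1 (GAGGAAG), the TATA box (TATAAA) and the cyclic AMP response element (TGACGTCA).
Ccl22: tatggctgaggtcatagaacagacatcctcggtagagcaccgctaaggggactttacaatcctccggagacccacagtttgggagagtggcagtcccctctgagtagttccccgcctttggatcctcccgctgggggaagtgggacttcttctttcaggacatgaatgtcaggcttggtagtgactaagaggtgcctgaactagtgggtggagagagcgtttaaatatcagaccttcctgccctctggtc
Ccl17: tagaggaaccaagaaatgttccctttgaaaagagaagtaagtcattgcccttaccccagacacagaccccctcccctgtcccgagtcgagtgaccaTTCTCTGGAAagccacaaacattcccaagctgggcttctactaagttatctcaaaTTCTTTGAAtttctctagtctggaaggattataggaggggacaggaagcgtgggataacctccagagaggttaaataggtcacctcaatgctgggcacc
The Ccl17 stretch holds a STAT6 match, 154 to 145 bases before the start, and a STAT5 match, 99 to 91 bases before it, which do not overlap. Among 32851 such stretches of the same length, 5.85% hold the STAT6 letters and 7.02% the STAT5 letters. The Ccl22 stretch holds none of the 8 in these letters. Of the factors themselves, Stat6 was at 9.29 ± 0.44 in transgenic and 10.005 ± 0.12 in wild-type arrays (SD, n = 4 each) and did not pass (difference -0.71, SE 0.20; limma adjusted p = 0.113). Neither did Stat5a (difference -0.70, SE 0.18, limma adjusted p = 0.0869) nor Stat5b (-0.32, SE 0.16, adjusted p = 0.440). A match describes the letters only, and no binding was measured.

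The mean signal of the mature migratory cDC genes, like Ccl22, was lower on every transgenic than on any wild-type array. This list holds genes that cDC turn on as they mature and move, and neither Ccl22 nor Ccl17 is in it. Its mean signal over 29 measured genes was 10.54, 10.31, 10.39 and 10.15 on transgenic replicates 1 to 4, against 10.78, 10.79, 10.77 and 10.76 on wild-type replicates 1 to 4. Both Ccl22 and the list were highest on transgenic replicate 1, then 3, 2 and 4, and both lay below every wild-type array on all 4. This order is not particular to the list: the means of 7 general dendritic cell markers, Ccr7 among them (10.34, 10.23, 10.31 and 9.88 on transgenic replicates 1 to 4) and of 25 transcription factors (9.43, 9.40, 9.42 and 9.06) had it too, with replicate 4, the array that stood apart, lowest in each. Of the 29 genes, 0 rose, 9 fell and 20 did not pass, where 0.848% of all genes fell, and the median difference was -0.25. The list was chosen with earlier results of these data known, so this count is a description and not independent support. Among those that fell were Ebi3, a subunit of interleukins 27 and 35 (difference -1.78, SE 0.25), Cd40, the receptor for T cell help (-1.37, SE 0.17), and Fscn1, which bundles actin in dendrites (-0.69, SE 0.12), each with a limma adjusted p of 0.0235 or less. Serpinb6b, Nudt17, Tnfrsf4 (OX40), Socs2, Cd274 (PD-L1) and Stat4 also fell, with differences of -1.01 to -0.73. Ccr7 (difference 0.07, SE 0.10) and Tnfrsf9 (0.34, SE 0.18) did not pass. The count of genes that fell was 6 without wild-type replicate 2 or 3.

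Few markers of other cells passed between the groups, though the summed signals of some lists did not overlap. Over all genes, 1.69% passed in either direction, and 8.94% had arrays that did not overlap between the groups. Of 9 plasmacytoid dendritic cell markers, 1 rose, 0 fell and 8 did not pass, where 0.839% of all genes rose, 8 differences were positive and the median was 0.49. The log2 of their summed signal, which the brightest marker leads, was 10.82 to 11.45 in transgenic and 10.21 to 10.55 in wild-type arrays, without overlap. Their mean signal did overlap, at 6.42 to 7.62 and 6.04 to 6.72. The 1 that rose, also the brightest, was Bst2, an interferon-induced antiviral gene that other cells also express. It was at 10.31 in transgenic and 9.55 in wild-type arrays (limma adjusted p = 0.0204). Siglech, the defining receptor of these cells, was at 6.33 and 5.66 with overlap (limma adjusted p = 0.477). The summed signal of 9 cDC1 markers, led by Batf3 and Irf8, was 11.39 to 11.74 in transgenic and 11.79 to 11.93 in wild-type arrays. Their mean signal overlapped, at 6.28 to 7.28 and 6.70 to 7.18, and 0 of the 9 passed. The summed signal of 8 mast cell and basophil markers was 9.66 to 10.02 and 9.09 to 9.22, while their mean signal overlapped (4.73 to 4.99 and 4.64 to 4.87). Of these Kit, the brightest, alone passed, at 9.63 in transgenic and 8.70 in wild-type arrays (limma adjusted p = 0.0100). Cpa3 and Fcer1a had group means of 3.16 to 4.38. Among the cDC genes, Flt3 and H2-Ab1 were lower on every transgenic than on any wild-type array, with differences of -0.37 and -0.25 (limma adjusted p = 0.350 and 0.352). Of the 7 general dendritic cell markers 0 passed, with 4 negative and 3 positive differences. The positive ones were Itgax (0.17), Sirpa (0.25) and Ccr7 (0.07). The part of any of these in the levels of Ccl22 and the mature migratory genes was not tested.

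**Figure D3:**
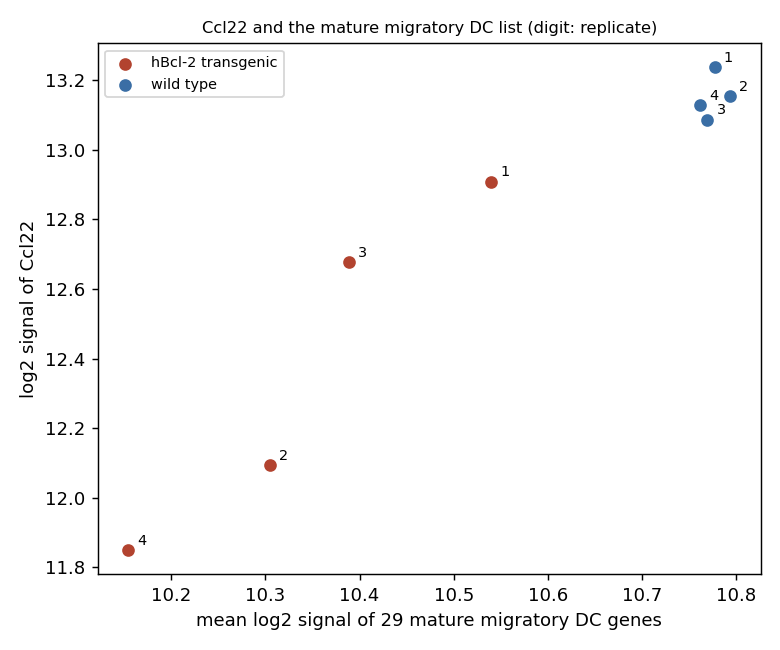
Log2 signal of Ccl22 (vertical axis) against the mean log2 signal of the 29 measured genes of the mature migratory cDC list (horizontal axis), 1 point per array, with hBcl-2 transgenic arrays in red and wild-type arrays in blue. The wild-type arrays lie together at the upper right, and the transgenic arrays lie below and to the left of them.

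Ccl5, a ligand of CCR1, was bright on every array and slightly higher in transgenic cDC. Its signal was 13.51, 13.43, 13.61 and 13.47 on transgenic replicates 1 to 4, against 13.33, 13.29, 13.42 and 13.33 on wild-type replicates 1 to 4. The lowest transgenic array was just above the highest wild-type array, so the groups did not overlap, but by a narrow margin. The means were 13.51 ± 0.08 and 13.34 ± 0.05 (transgenic and wild type, SD, n = 4 each), with a difference of 0.16 (SE 0.10, 95% interval -0.05 to 0.38). It did not pass (limma adjusted p = 0.545), although the exact two-sided permutation test gave 0.0286, the smallest it can. The interval allows at most a 1.30-fold rise, on a scale whose brightest probe set on any array was 13.95 and where differences can be compressed.

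Ccl3 and Ccl4, which encode the inflammatory chemokines MIP-1alpha and MIP-1beta, had like means in the 2 groups and very unequal arrays within each. The signal of Ccl3 was 7.89, 9.34, 7.36 and 7.71 on transgenic replicates 1 to 4, against 7.61, 7.69, 8.05 and 9.02 on wild-type replicates 1 to 4. The signal of Ccl4 was 7.24, 8.996, 6.42 and 6.66 on transgenic replicates 1 to 4, against 6.61, 6.96, 7.30 and 8.02 on wild-type replicates 1 to 4. For both genes transgenic replicate 2 was the highest of all arrays and wild-type replicate 4 the next. The difference was -0.02 (SE 0.42, 95% interval -0.96 to 0.92; limma adjusted p = 0.991) for Ccl3 and 0.11 (SE 0.51, interval -1.02 to 1.23; adjusted p = 0.963) for Ccl4. As folds these intervals are 0.516 to 1.89 for Ccl3 and 0.494 to 2.35 for Ccl4, and a change within them was not detectable here. The sign of either difference rests on single arrays: without transgenic replicate 2 the differences were -0.44 for Ccl3 and -0.45 for Ccl4, and without wild-type replicate 4 they were 0.29 and 0.37.

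The 2 genes varied together from array to array. Over the 8 arrays Pearson's r was 0.972 (exact permutation p = 7.44e-05, adjusted p = 0.00208 over 28 pairs of the 8 genes) and Spearman's rho 0.976 (exact permutation p = 0.000397, adjusted p = 0.0111). Leaving out transgenic replicate 2 and wild-type replicate 4, the arrays farthest from the median of Ccl3, r was 0.931. With only 4 arrays in a group, r was not taken within each group, and with both group means taken off it was 0.975. None of the other 27 pairs passed after adjustment. The next was Ccl5 with Ccl6 (Pearson's r = 0.836, exact permutation p = 0.0108, adjusted p = 0.151; Spearman's rho 0.738, exact permutation p = 0.0458, adjusted p = 0.358), whose r was 0.733 without transgenic replicate 3 and wild-type replicate 2. Both genes had groups that did not overlap, and with the group means taken off r was 0.420. Taken the same way, r was 0.869 for Ccl3 with Ccl9 and 0.847 for Ccl4 with Ccl9. With the group means left in, the r of these pairs was 0.621 and 0.659 over the 8 arrays. It was -0.099 and 0.057 without transgenic replicate 2 and wild-type replicate 4. The annotated spans of Ccl3 and Ccl4 overlap in the RefSeq mouse gene table, and whether a probe of one reads transcripts of the other was not tested.

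NK cell markers were high on the same arrays. The mean signal of the 9 measured NK markers was 6.45, 7.40, 6.02 and 6.22 on transgenic replicates 1 to 4, against 5.55, 5.98, 6.32 and 6.86 on wild-type replicates 1 to 4. By this mean the order within each group is that of Ccl3 and of Ccl4. Of the 9, 7 were highest among transgenic arrays on replicate 2, and 6 were highest among wild-type arrays on replicate 4. How many of all genes were highest on these arrays was not counted, so such counts have no background share. Ncr1, which encodes the NK receptor NKp46, was at 6.75, 8.41, 5.77 and 5.36 in transgenic and 4.90, 5.91, 6.46 and 8.47 in wild-type arrays (replicates 1 to 4). The log2 of the summed signal of the list, which the brightest marker leads, was 10.95, 11.60, 10.74 and 11.43 on transgenic replicates 1 to 4, against 9.87, 10.10, 10.11 and 10.60 on wild-type replicates 1 to 4. By this sum transgenic replicate 4 stood above replicate 1, unlike in Ccl3 and Ccl4, and the groups did not overlap. Klrd1, which encodes the NK receptor chain CD94, was the only NK marker past the threshold, at 10.68 in transgenic and 9.18 in wild-type arrays. Over all genes, 1.69% passed. The NK transcription factor Eomes stayed dim throughout (4.12 to 4.92). T cell markers were also highest on these arrays for 5 of 9 genes in transgenic and 6 of 9 in wild type, with a summed log2 signal of 8.83 to 9.20 and 8.67 to 9.47. Of these 9, Cd4 alone passed, at 6.70 in transgenic and 5.52 in wild-type arrays (limma adjusted p = 0.00437). In this list 7 differences were negative and 2 positive. Being highest on these arrays was not particular to NK and T cell markers. Of 9 cDC1 markers, 5 were highest on transgenic replicate 2 and 5 on wild-type replicate 4. Of 12 macrophage markers it was 6 and 5, of 9 plasmacytoid dendritic cell markers 7 and 2, and of 29 mature migratory genes 5 and 8. The part of NK or T cell RNA in the signals of Ccl3 and Ccl4 was not tested.

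**Figure D4:**
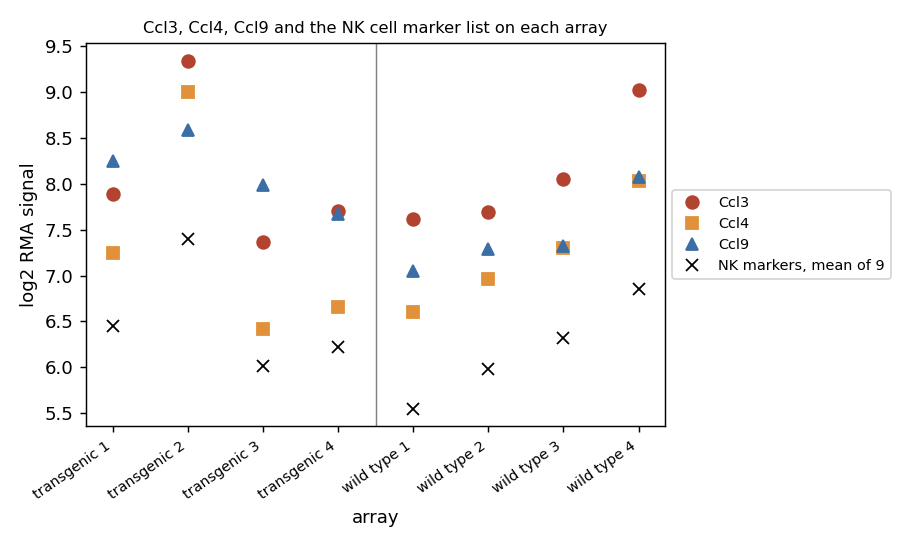
Log2 RMA signal (vertical axis) of Ccl3, Ccl4 and Ccl9 and the mean log2 signal of 9 NK cell markers (crosses) on each array, with hBcl-2 transgenic arrays to the left of the line and wild-type arrays to the right. All 4 series are highest in their group on transgenic replicate 2 (NK mean 7.40) and wild-type replicate 4 (NK mean 6.86).

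Ccl6, a CCR1 ligand of myeloid cells, was the 1 gene of the 8 that passed. Its signal was 5.93, 5.70, 6.37 and 6.22 on transgenic replicates 1 to 4, against 5.37, 5.42, 5.18 and 5.38 on wild-type replicates 1 to 4. All transgenic arrays lay above all wild-type arrays, and the 2 highest were replicates 3 and 4. The means were 6.05 ± 0.30 and 5.34 ± 0.10 (transgenic and wild type, SD, n = 4 each), and Ccl6 rose by 0.72 (SE 0.15, 95% interval 0.38 to 1.05; limma adjusted p = 0.0458), a fold of 1.65 (interval 1.31 to 2.08). The exact two-sided permutation test gave 0.0286, the smallest it can. Of all genes, 0.839% were called higher. The call was narrow: it was lost without any of transgenic replicates 1, 3 and 4 or any 1 of the wild-type arrays (limma adjusted p = 0.0734 to 0.134), after either rescaling of the arrays (0.0575 and 0.0539) and with the replicate number as a block (0.105). The wild-type level is dim, close to the median of all probe sets, which was 5.04 to 5.15 on the 8 arrays, so the size of the fold is uncertain.

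Ccl9, the other mouse CCR1 ligand and the neighbour of Ccl6 on chromosome 11, was higher on most transgenic arrays. Its signal was 8.24, 8.58, 7.98 and 7.67 on transgenic replicates 1 to 4, against 7.05, 7.29, 7.32 and 8.08 on wild-type replicates 1 to 4. The groups overlapped through wild-type replicate 4, which lay above transgenic replicates 3 and 4, while the other wild-type arrays lay below every transgenic array. The means were 8.12 ± 0.39 and 7.44 ± 0.44 (transgenic and wild type, SD, n = 4 each), with a difference of 0.69 (SE 0.24, 95% interval 0.15 to 1.22). It did not pass (limma adjusted p = 0.225), and the exact two-sided permutation test gave p = 0.0857. The difference was 0.90 without wild-type replicate 4 (limma adjusted p = 0.0910) and 0.53 without transgenic replicate 2 (adjusted p = 0.409). These 2 arrays had the highest NK marker mean of their groups. From high to low, Ccl9 ran over transgenic replicates 2, 1, 3 and 4, and the NK mean over 2, 1, 4 and 3. The part of NK cell RNA in the signal of Ccl9 was not tested. Without transgenic replicates 1 and 2 together the difference was 0.39 (limma adjusted p = 0.611).

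Monocyte markers were high on some transgenic arrays but not in the order of Ccl6. Ly6c2, a marker of inflammatory monocytes, was at 8.28, 10.38, 5.81 and 7.11 on transgenic replicates 1 to 4, against 6.04, 5.46, 6.83 and 6.02 on wild-type replicates 1 to 4. The log2 of the summed signal of the 11 measured monocyte markers was 11.01 to 12.30 in transgenic and 10.87 to 11.25 in wild-type arrays. Among transgenic arrays 6 of the 11 were highest on replicate 2, a count without a share of all genes. That of 12 macrophage markers was 10.71 to 11.12 and 10.56 to 10.78. Of these 12, Adgre1 (F4/80) alone passed, at 7.41 in transgenic and 6.12 in wild-type arrays, where 1.69% of all genes passed. Of the monocyte markers 0 of 11 passed, 8 differences were positive and the median was 0.11. S100a4, which other leukocytes also express, was at 10.94 in transgenic and 10.57 in wild-type arrays (limma adjusted p = 0.246). Its arrays did not overlap, which held for 8.94% of all genes. Cd14 was at 5.98 and 5.25, and Ms4a4c at 6.39 and 6.05 (limma adjusted p = 0.226 and 0.372). Of the macrophage markers, 7 of 12 differences were positive and the median was 0.010. Cd68 was at 10.18 in transgenic and 9.85 in wild-type arrays (limma adjusted p = 0.353), and Apoe at 7.53 in both groups. Marco was at 5.52 in transgenic and 6.13 in wild-type arrays (limma adjusted p = 0.301). The macrophage markers Fcgr1, Mertk and Cd163 were at 3.20 to 4.82 over all arrays, and the monocyte genes F13a1 and Vcan at 3.31 to 4.19. C1qa was at 6.27 in transgenic and 6.44 in wild-type arrays, without overlap (limma adjusted p = 0.541). C1qb was at 6.55 and 6.44, and C1qc at 5.67 and 5.37 (limma adjusted p = 0.847 and 0.591). Ccl6 was lowest among transgenic arrays on replicates 2 and 1, where Ly6c2 was highest. Without these 2 arrays the difference of Ccl6 was 0.96 (limma adjusted p = 0.0310). Leaving out its 2 lowest transgenic values must enlarge the difference, so no conclusion is drawn from this. Ccl9 was highest on the same 2 arrays. The part of monocyte or macrophage RNA in the signals of Ccl6 and Ccl9 was not tested.

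The stretches before the starts of Ccl9 and Ccl6 are shown because these neighbours had the 2 largest positive differences of the 8 genes. From RefSeq (GRCm38.p6), they are chr11:83578637-83578886 for Ccl9 and chr11:83593088-83593337 for Ccl6, both on the - strand and read 5′ to 3′ on the strand of the gene, with capitals as above.
Ccl9: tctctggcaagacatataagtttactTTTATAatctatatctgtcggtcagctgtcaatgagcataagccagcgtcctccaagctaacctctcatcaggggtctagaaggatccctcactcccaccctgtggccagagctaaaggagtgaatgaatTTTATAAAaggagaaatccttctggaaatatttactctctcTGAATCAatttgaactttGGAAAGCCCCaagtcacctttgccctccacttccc
Ccl6: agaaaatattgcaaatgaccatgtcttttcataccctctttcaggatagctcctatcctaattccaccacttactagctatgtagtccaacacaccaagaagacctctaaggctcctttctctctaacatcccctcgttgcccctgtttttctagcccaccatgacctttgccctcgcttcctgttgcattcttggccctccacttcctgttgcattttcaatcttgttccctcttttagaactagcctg
The Ccl9 stretch holds an NF-kB match 35 to 26 bases before the start and an AP-1 match 53 to 47 bases before it. It also holds 3 TATA box matches, 2 of which overlap each other between 94 and 87 bases before the start. The shares of all 32851 stretches with a match are 7.25% for NF-kB, 6.75% for AP-1 and 12.4% for the TATA box. The Ccl6 stretch, like that of Ccl3, holds none of the 8 motifs in these letters. The neighbours thus differ in these letters, which says nothing of what binds there.

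Ccl2, the CCR2 ligand that recruits monocytes, was dim in both groups. Its signal was 5.31, 5.49, 5.16 and 5.51 on transgenic replicates 1 to 4, against 5.33, 5.40, 5.85 and 5.78 on wild-type replicates 1 to 4. The groups overlapped, with transgenic replicates 1 and 3 below all wild-type arrays. The difference was -0.22 (SE 0.15, 95% interval -0.55 to 0.11; limma adjusted p = 0.602). The genes that follow Ccl2 along the chromosome, Ccl7, Ccl11, Ccl12, Ccl8 and Ccl1, had group means of 3.36 to 5.78 and did not pass, with differences of -0.22 to 0.02.

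Of 15 other CC chemokines listed, 11 were measured by a probe set that names a single gene, and 0 rose, 0 fell and 11 did not pass in limma. The mean signals of Ccl7, Ccl25, Ccl27a and Ccl28 lay at the 50.9th to 56.9th percentile of all genes, and those of the other 7 below the median gene. At an unadjusted p below 0.05 there was 1 of the 11, where 13.2% of all genes lay. It was Ccl27a, a ligand of CCR10 known from skin (5.60 in transgenic and 5.15 in wild-type arrays, difference 0.45, SE 0.16; limma adjusted p = 0.226). Group means of the 11 ran from 3.36 to 5.82. Ccl20, the ligand of CCR6, was at 5.11 in transgenic and 4.93 in wild-type arrays and did not pass (limma adjusted p = 0.592).

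Among the receptors, Ccr6, through which cells follow CCL20 to the intestinal epithelium and its lymphoid follicles, rose in transgenic cDC. Its signal was 9.25, 9.45, 9.18 and 8.71 on transgenic replicates 1 to 4, against 7.96, 8.00, 7.91 and 7.99 on wild-type replicates 1 to 4. The groups were well apart, and the difference was 1.18 (SE 0.15; limma adjusted p = 0.00692). Of 14 measured CC and atypical receptors, 1 rose, 0 fell and 13 did not pass, where 0.839% of all genes rose, and the median difference was 0.15, against -0.0016 over all genes. Ccrl2, a receptor that binds chemerin, was at 11.22 in transgenic and 10.96 in wild-type arrays and did not pass (limma adjusted p = 0.300). Its arrays did not overlap between the groups, as for 8.94% of all genes. Ccr2, the CCL2 receptor, had signals of 7.48, 7.85, 5.70 and 5.30 on transgenic replicates 1 to 4, against 5.85 to 6.29 on the wild-type arrays. It was thus high on the 2 arrays with the most Ly6c2. Ackr1, a decoy receptor that binds many of these chemokines, was at 6.97 on transgenic replicate 2 and at 4.12 to 5.41 on every other array (difference 0.93, SE 0.46; limma adjusted p = 0.439). Ccr4, the receptor of CCL17 and CCL22 (3.57 to 4.18), and Ccr1 (3.53 to 4.35) were dim on all arrays.

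Of 25 measured transcription factors and feedback genes that act on chemokine promoters, 0 rose, 1 fell and 24 did not pass, where 0.848% of all genes fell. The median difference was -0.19, against -0.0016 over all genes. The 1 was Irf1, an interferon-induced activator, which fell to 9.18 in transgenic arrays, against 9.86 in wild type (difference -0.68, SE 0.13; limma adjusted p = 0.0330), and which lost its call with the replicate block and without any 1 of transgenic replicates 1 and 2 and wild-type replicates 2, 3 and 4. Nfkbiz, a nuclear cofactor of NF-kB, had the next lowest statistic, with a difference of -0.64 (SE 0.14; limma adjusted p = 0.0591). Atf3, a stress-induced repressor (0.64, SE 0.18; limma adjusted p = 0.112), and Cebpb, a myeloid activator (0.76, SE 0.24; adjusted p = 0.169), were highest and did not pass. Of 12 factors that bind or cut cytokine and chemokine mRNA, 0 rose, 1 fell and 11 did not pass, where 0.848% of all genes fell, with a median of -0.078. The 1 was Zc3h12d, a relative of the ribonuclease Regnase-1, which fell (difference -1.38, SE 0.25; limma adjusted p = 0.0286), but not without transgenic replicate 2 or 4 or wild-type replicate 1, 2 or 3. Zfp36l2, a relative of the decay factor tristetraprolin, had the highest statistic of this list and did not pass (difference 0.76, SE 0.42; limma adjusted p = 0.490). Of 6 genes that cut or store chemokines, 0 passed in limma, where 1.69% of all genes did. At an unadjusted p below 0.05 there was 1, Srgn, where 13.2% of all genes lay. Dpp4, the peptidase CD26 that trims CCL22 and CCL5, was at 11.69 in transgenic and 11.78 in wild-type arrays (limma adjusted p = 0.802), and Srgn, a proteoglycan that holds chemokines in granules, had a difference of -0.31 (SE 0.10; adjusted p = 0.188).

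The genes most like each chemokine were sought among those with a mean of at least 6 and an SD of at least 0.2 within groups, by Pearson's r over the 8 arrays with both group means taken off. For each, 4831 or 4832 genes were searched, so high values of r are reached by some genes in any case, and the names are a description. Ccl22 was followed most closely by Mmp25, a membrane-bound matrix metalloproteinase (r = 0.996), Mark4 (0.986) and Gphn (0.977). Ccl17 was followed by Inafm2 (0.963), Endog (0.952) and Mtss1 (0.944), and so shared none of its 3 with Ccl22. For Ccl3 the 3 were Zfp326 (0.977), Ccl4 (0.975) and Icos, a costimulatory receptor of T cells (0.969). For Ccl4 they were Cfp, which encodes properdin (0.994), Itgal, the integrin chain of LFA-1 (0.984), and Ccl3. Those of Ccl9 were the NK receptor gene Klrb1b (0.990), Bcl2 (0.989) and Ncr1 (0.975). Bcl2 itself was at 6.86 ± 0.34 in transgenic and 6.11 ± 0.40 in wild-type arrays (SD, n = 4 each) and did not pass (limma adjusted p = 0.139). Its probe set is made for the mouse gene, and whether it reads the human transgene was not tested. Ccl6 was followed by Laptm4b (0.971), Mospd2 (0.951) and Zfp959 (0.942), Ccl5 by St6galnac3 (0.965), Rab5a (0.961) and Ppp1r3b (0.954), and Ccl2 by Dhx40 (0.974), Fam210a (0.953) and Klri2 (0.926).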

How the data were processed

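Gene expression was measured on 8 one-colour microarrays of sorted CD103+ CD11b+ cDC, from 2.5 ng of amplified RNA per the labels' protocols. The values are the deposited log2 signals per probe set, which the authors made with RMA and Partek (versions not given), per the submitters' processing notes. RMA corrects background, makes the arrays' distributions alike and summarises probes, so a shift of all genes would not be seen. The genome build of the probes is not given in the sources used here.

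Of 34390 probe sets, 23521 name 1 gene in the platform annotation, 1814 several and 9055 none. The brightest probe set stood for each of 22180 genes. Groups came from the labels. Transgenic minus wild type was fitted with limma 3.58.1 in R 4.3.3 (lmFit, eBayes, statmod 1.5.0 for weights) and adjusted by Benjamini-Hochberg over all genes at 0.05. The fit was tested on simulated data. Single genes also had exact permutation tests (70 assignments). Figures used matplotlib 3.10.9 in Python 3.11.15. Alternatives were variance priors, filters on dim genes, rescaling, probe set rules, array weights, the replicate block, another threshold and left-out arrays. Genes named were all 8, other CC chemokines, receptors and markers, and from each list those past the threshold or with extreme statistics; chromosome neighbours and factors named beside motifs were added after their values were seen. The members, the lists and the arrays left out together were chosen with earlier results of these data known.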

Additional observations from a re-analysis of the deposited data

How the results depend on the processing

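Of the 8 genes, 1 passed as reported (Ccl6). The count was 0 when genes averaging under 6 were left out, where Ccl6 and Ccl2 are not tested, 0 after quantile normalization applied again, 0 with each array centred on its median and 0 with the replicate number as a block. It ran from 0 to 1 when each array was left out in turn. The number of all genes past the threshold was 374 as reported, 187 with the replicate block, 747 at an adjusted p of 0.1, 125 without transgenic replicates 1 and 2 together, and 106 to 379 when each array was left out. Ccl6 stayed positive in the 19 alternatives that test it (0.62 to 0.96; limma adjusted p = 0.0310 to 0.134) and lost its call in 10. The values 0.96 and 0.0310 came without transgenic replicates 1 and 2 together, which must enlarge the difference. The remaining genes passed in none of their alternatives. Ccl22 stayed negative in 20 of 20 (-0.94 to -0.59; limma adjusted p = 0.0522, without transgenic replicate 1, to 0.244), Ccl9 positive in 20 of 20 (0.39 to 0.90; 0.0910 to 0.611), and Ccl17, Ccl5 and Ccl2 also kept their sign. The sign of Ccl3 turned with array weights (0.030), and its difference ran from -0.44 to 0.29 when each array was left out. That of Ccl4 ran from -0.45 to 0.41, and was -0.68 without transgenic replicates 1 and 2 together. The cause was not tested. Same-numbered arrays of the 2 groups had correlations of their deviations of 0.0062, -0.062, 0.13 and 0.025 for replicates 1 to 4, and only replicate 3 of the transgenic arrays correlated best with its own number, so the numbers were not taken to pair the samples, and the replicate block changed no call among the 8 but that of Ccl6 (adjusted p = 0.105). The lists' counts, run under the same alternatives after seeing the data, were 6 to 10 lower for the mature migratory genes, 1 for the receptors, 0 to 4 for the transcription factors and 0 to 1 for the mRNA decay factors. Dim signals of Ccl2 and Ccl6 and the bright ones of Ccl22 and Ccl5 limit how well their sizes are known.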
